A study of Sus scrofa with 54 samples.

Results

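Heat shock proteins and their DNAJ co-chaperones were followed in the ileum of growing piglets as 45 genes, out of 6765 gene symbols on the array. They were chosen by name: a probeset entered when the platform annotation gave it a single symbol beginning with HSPA, HSPB, HSPD, HSPE, HSPH, HSP90 or DNAJ. Of 24056 probesets tested, 72 met that rule. Each gene was read from its brightest probeset by the mean over all arrays, and 17 of the 45 genes had more than 1 probeset to choose from. The rule goes by letters, so it also took in HSPBP1, which helps HSP70 proteins to release nucleotide, and HSPB11, which is a protein of ciliary transport and not a chaperone. The stress-inducible HSPA1A and HSPA1B were not among the 45. A closely related pig gene carries the older symbol HSP70.2 in the annotation, and its values are given beside those of HSPA6.

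HSP70 proteins bind short hydrophobic stretches of unfolded proteins and let go of them in a cycle driven by ATP. DNAJ proteins carry a J domain, which brings clients to HSP70 and speeds ATP hydrolysis, and exchange factors such as HSPH1 reset the cycle. HSP90 proteins finish the folding of kinases and hormone receptors, the mitochondrial chaperonin HSPD1 folds imported proteins under its lid HSPE1, and small heat shock proteins hold denatured proteins without using ATP. Most members are made all the time in gut tissue, while a few are switched on by heat shock factor under stress, and those of the endoplasmic reticulum rise when secretory cells are loaded with unfolded protein.

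The animals were 54 piglets of 12 Large White × Landrace sows inseminated by the same boar, with 6 piglets in each of 9 groups. IR piglets were taken from indoor sows at 24 h of age into individual isolators, received milk replacer to day 28, and were dosed every day with the antibiotics Baytril and Amoxinsol 50. IN piglets stayed with sows indoors and OUT piglets stayed with sows outdoors until weaning at day 28, and all 3 treatments had creep feed from day 29. Ileal tissue was taken at day 5, day 28 and day 56, at 75% of the length of the small intestine from the pyloric sphincter, and each piglet had its own GeneChip Porcine Genome array. Isolation, milk replacer and antibiotics came together in IR and cannot be told apart. The work with the animals was done in 3 consecutive replicates, which the study's own fits took as a block. The labels do not say to which of them a piglet belonged, nor which sow it came from, so neither was fitted here. Day 56 differed from day 28 in age, weaning and diet at once.

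Values are log2 signals, so that a difference of 1 is a 2-fold change. Array medians lay between 3.99 and 4.22, no 2 arrays held identical values, and the correlation between arrays was 0.861 to 0.994. Precision was limited by the number of arrays. The marker list of enterocytes had 11 genes on the array, and their mean signal lay between 11.37 and 13.40 in every piglet but 1. That piglet was OUT replicate 3 at day 5, at 6.99, and its array correlated least with those of its group, at a mean of 0.881. IN replicates 3 and 2 at day 28 came next, at 0.935 and 0.944. Calls of members within a day that changed without these 3 piglets are given also without them, as are several counts.

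Signals of the chaperones spanned nearly the whole range of the array. HSPE1, HSPA8 (the constitutive HSP70 of the cytosol) and HSPA5 (the HSP70 of the endoplasmic reticulum, known as BiP) had the brightest probesets, with means over 54 piglets of 12.93, 12.84 and 12.45. The dimmest were HSPA12A at 2.36, HSPB3 at 2.54 and DNAJA4 at 2.96. HSPA12A, HSPB2 and HSPB3 did not reach a signal of 4 on any array, and DNAJA4 did so on 1, so that small differences of these genes lie near the floor of the array. Probes differ in how well they bind, and the order of signals is therefore not an order of transcript numbers.

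**Figure D1:**
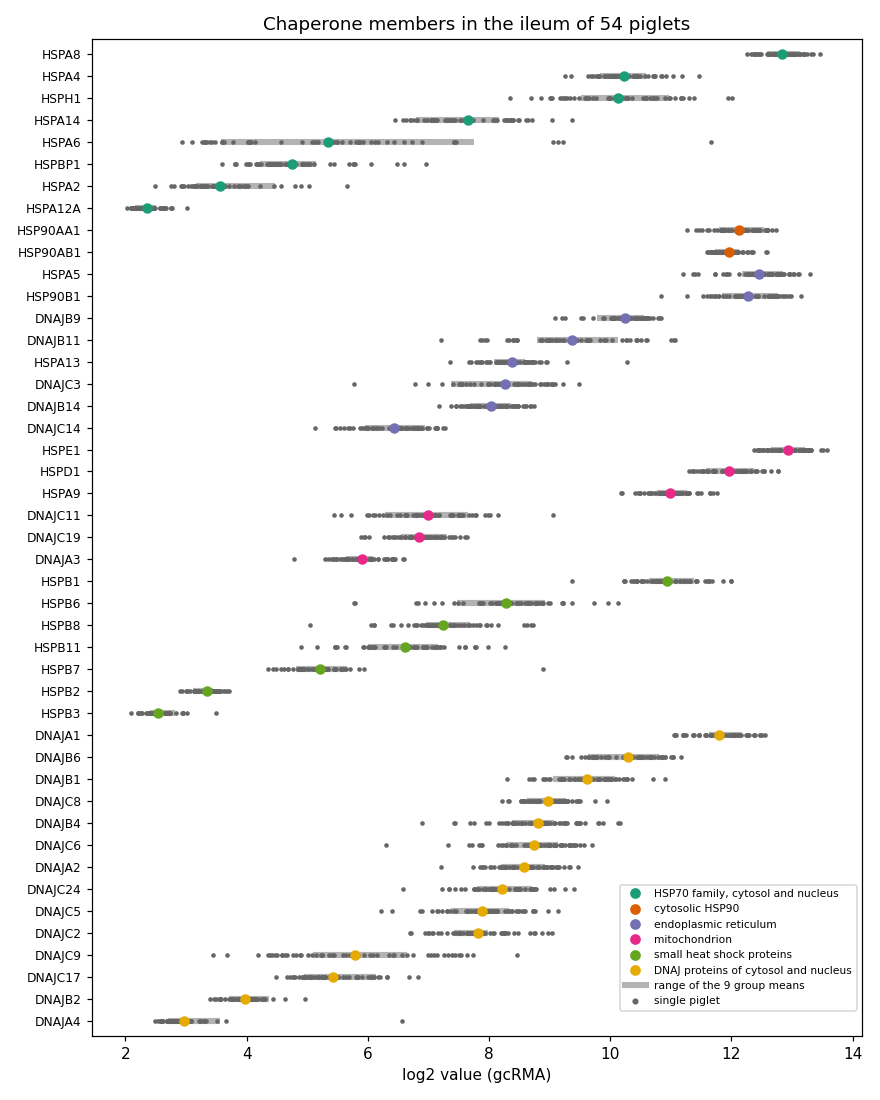
Log2 signal of each of the 45 genes (rows, grouped by role) in 54 piglets: small dots are piglets, the coloured dot is the mean over all of them and the grey bar spans the 9 group means. Means run from 2.36 for HSPA12A to 12.93 for HSPE1, and HSPA6 has single piglets far from the rest, the highest at 11.67.

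OUT replicate 3 at day 5 stood apart from its group in several members. HSPA6, an HSP70 gene that is nearly silent in unstressed human cells, had a signal of 11.67 in that piglet, against 2.94 to 4.13 in the other 5. Its excess of 8.05 over their mean ranked 13 among the 24056 probesets on that array. HSPB7, a small heat shock protein of heart and muscle, had 8.89 against 4.44 to 5.56, and DNAJA4, a J protein of the cytosol, had 6.56 against 2.87 to 3.02. DNAJB1, the main partner of HSP70 in the heat shock response, had 10.90 against 8.89 to 9.52. This piglet was thus above the range of the other OUT piglets in all 4 genes. Deviations of other members from the mean of the other 5 varied. They were 1.48 for HSPB8, 1.27 for HSPB1, 1.11 for HSPH1 and 0.63 for HSP90AA1. For HSPD1 and HSPA8 they were 0.46 and 0.45, and for DNAJA1 and HSPE1 -0.15 and -0.25.

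Of the 45 members, 15 exceeded the mean of the other 5 piglets by more than 1 and 4 fell short of it by more than 1, against 13.5% and 12.6% of all probesets. The median excess over the members was 0.55. Among the 4 low members were DNAJC6, the auxilin of clathrin uncoating, with a deviation of -2.88, and DNAJB9, a J protein of the endoplasmic reticulum, with -1.4. DNAJC6 was chosen after its values were seen. Other gene lists also stood apart in the same piglet. Immediate early genes were higher by a median of 2.39, with 11 of 15 over 1, and FOS had 12.70 against 5.33 to 8.63. Macrophage and granulocyte markers were higher by a median of 3.22, with 5 of 8 over 1 and 1 below -1, and S100A9 had 13.79 against 2.28 to 2.59. Smooth muscle markers were higher by a median of 1.05, while enterocyte markers had a median deviation of -3.95, with ANPEP at 4.44 against 12.5 to 13.2. The part of these other cells in the chaperone signals was not tested.

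At day 5 no member met the call used for treatments, which asks for an unadjusted p under 0.01 with at least a 2-fold change. The shares of all probesets called were 0.366% for IR minus IN, 0.337% for IR minus OUT and 0.0499% for IN minus OUT. Below that call, 10 members had an unadjusted p under 0.05 in IR minus IN, all of them higher in IR, against 7.64% of all probesets and 4.78% in that direction. The difference was above 0 for 30 of 45 members, against 47.6% of all probesets. None of the members had an adjusted p under 0.05 in that comparison, against 0.0125% of all probesets (limma with Benjamini-Hochberg adjustment over all probesets).

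The mitochondrial chaperones stood on the IR side at day 5. HSPD1, the chaperonin HSP60, had signals of 11.84 to 12.54 in IR piglets (median 11.94), against 11.37 to 11.73 in IN piglets (median 11.60). All 6 IR piglets were above all 6 IN piglets, and HSPD1 was the only member whose IR and IN piglets did not overlap at day 5, against 0.823% of all probesets. The difference was 0.53 (SE 0.14, unadjusted p = 0.00126, adjusted p = 0.319 by limma, exact permutation p = 0.00216, the smallest that 6 against 6 allows). Its lid HSPE1 had 12.59 to 13.23 in IR (median 13.02) and 12.38 to 12.94 in IN (median 12.63), with overlap, and a difference of 0.30. HSPA9, the mitochondrial HSP70 that pulls proteins through the inner membrane, had 10.64 to 11.76 in IR (median 11.31) and 10.49 to 11.14 in IN (median 10.91), and a difference of 0.39. Of the 6 mitochondrial members 5 were above 0 and 4 had an unadjusted p under 0.05, with a median difference of 0.34 against -0.012 over all probesets.

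Other members on the IR side were J proteins and HSP70 relatives. DNAJA2, a J protein that serves HSPA8 in refolding, had 8.72 to 9.05 in IR (median 8.98), against 7.74 to 8.72 in IN (median 8.39). Only the highest IN piglet came up to the lowest IR piglet, and the difference was 0.58 (SE 0.19, unadjusted p = 0.00638, adjusted p = 0.498, exact permutation p = 0.00433). HSPA14, an HSP70 relative that sits on ribosomes, had 6.81 to 8.40 in IR (median 7.38) and 6.45 to 7.28 in IN (median 6.73), with overlap, and a difference of 0.75. DNAJC5, the cysteine string protein of secretory vesicles, had 7.36 to 8.57 in IR (median 8.29), against 6.40 to 8.36 in IN (median 7.36) and 6.90 to 7.89 in OUT (median 7.26). It had the smallest p of the members in IR minus OUT, with a difference of 0.79 (unadjusted p = 0.0105, adjusted p = 0.764, exact permutation p = 0.0130). Only 2 members had an unadjusted p under 0.05 in that comparison, DNAJC5 and HSPD1, against 6.26% of all probesets. Without OUT replicate 3 there were 6 higher and 1 lower, against 7.05% of all probesets.

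Related folding genes that are not members were on the IR side in the same comparison. All 13 measured genes of the cytosolic chaperonin and prefoldin list were above 0 in IR minus IN, with a median of 0.33, and 6 of them had an unadjusted p under 0.05. Of the mitochondrial chaperone and protease list 6 of 7 genes were above 0 and 3 had an unadjusted p under 0.05, among them GRPEL1, the exchange factor of HSPA9, at 0.54. Of the cell cycle genes 8 of 9 were above 0, with a median of 0.55, and 4 had an unadjusted p under 0.05. In whole tissue, fewer cells of a type and less RNA per cell cannot be told apart, and the part of dividing cells in the chaperone differences was not tested. Without OUT replicate 3, which enters the estimate of spread, 12 members had an unadjusted p under 0.05 in IR minus IN, all higher, against 11.4% of all probesets.

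IN minus OUT at day 5 had 1 member with an unadjusted p under 0.05, against 3.99% of all probesets. This was HSPB3, a small heat shock protein of muscle, with 2.47 to 3.50 in IN (median 2.70) and 2.37 to 2.58 in OUT (median 2.43), all of it near the floor. Without OUT replicate 3 the p of HSPB3 was 0.0524, and 1 member, lower in IN, had an unadjusted p under 0.05, against 3.43% of all probesets. Of the 45 members 11 were above 0, against 52.6% of all probesets, and for the HSP70 family of cytosol and nucleus this was 1 of 8. The sign of HSPA6 rested on a single piglet: its IR minus OUT difference of -0.71 at day 5 became 0.63 without OUT replicate 3. In IR, replicate 1 had 7.42, against 3.09 to 4.08 in the other IR piglets and 2.94 to 4.13 in OUT without replicate 3. The fit was not repeated with IR replicate 1 left out as well.

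At day 28 the indoor and outdoor sow-reared piglets differed in 2 members, both lower in IN. HSPB6 (HSP20, a small heat shock protein of smooth, cardiac and skeletal muscle) and HSPH1 (HSP110, the exchange factor of HSP70) met the call, as 2 of 45 members, against 0.191% of all probesets in either direction and 0.129% lower. With an unadjusted p under 0.05 there were 8 members, all lower in IN, against 4.99% of all probesets and 2.52% in that direction. Without IN replicate 3 there were 5, all lower, against 4.56%, and without IN replicates 2 and 3 there were 4 lower and 1 higher, against 3.01% of all probesets. No adjusted p was under 0.05 among the members or over all probesets, a share of 0%, and the smallest among the members was 0.978 (limma).

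HSPB6 had signals of 8.50, 5.78, 6.95, 8.28, 7.87 and 7.49 in IN replicates 1 to 6, against 8.82, 8.16, 8.79, 9.74, 8.24 and 8.60 in OUT replicates 1 to 6. Of the 6 IN piglets 4 were below every OUT piglet, and replicate 2 was the lowest. The means were 7.48 ± 1.0 in IN and 8.72 ± 0.57 in OUT (SD, n = 6 each), so that HSPB6 fell by 1.25 on the log2 scale, or 2.38-fold (SE 0.41, unadjusted p = 0.00757, adjusted p = 0.978 by limma, exact permutation p = 0.0152). IR piglets, at 7.42 to 9.22 (median 8.36), overlapped both. A second, dimmer probeset of HSPB6 gave -0.78 in IN minus OUT. Without IN replicates 2 and 3 the difference was -0.69 with an unadjusted p of 0.0629 and was no longer a call. The call was also lost without any 1 of IN replicates 2, 3 and 6 or OUT replicates 1, 3, 4 and 6, with differences of HSPB6 between -1.27 and -0.91.

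HSPH1 had 10.78, 10.28, 8.85, 9.02, 9.58 and 10.70 in IN replicates 1 to 6, against 10.15, 10.06, 11.20, 11.94, 11.17 and 11.31 in OUT. IN replicates 3, 4 and 5 were below the whole OUT range, while the other 3 IN piglets lay inside it, and the IR piglets ran between 9.98 and 10.97 (median 10.56). HSPH1 was lower by 2.15-fold, a difference of -1.10 (SE 0.37, unadjusted p = 0.00806, adjusted p = 0.978 by limma, exact permutation p = 0.0455). Without IN replicates 2 and 3 it was -0.95 with an unadjusted p of 0.028, below the 2-fold minimum, and no member was called. Without any 1 of IN replicates 3, 4 and 5, OUT replicates 3 to 6 or IR replicates 3 to 5, HSPH1 lost its call at differences between -1.10 and -0.90. IN replicates 3, 4 and 5 and OUT replicates 1 and 2, the lowest of their groups in HSPH1, were also the 5 piglets with low means of the 9 cell cycle genes, at 5.74 to 6.76, against 8.58 to 9.51 in the other 7. The part of dividing cells in the difference of HSPH1 was not tested.

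HSP90AA1 and 3 chaperones of the endoplasmic reticulum were among the other low members at day 28. HSP90B1 (GRP94, the HSP90 of the endoplasmic reticulum) had 12.66, 11.73, 10.83, 11.73, 11.68 and 12.44 in IN, against 12.66, 12.27, 12.83, 13.14, 12.99 and 12.69 in OUT. Of the IN piglets 4 were below the OUT range, the lowest being replicate 3. HSP90B1 averaged 11.84 ± 0.65 in IN and 12.76 ± 0.30 in OUT, a difference of -0.92 (SE 0.27, unadjusted p = 0.00331, adjusted p = 0.978, exact permutation p = 0.0130), the smallest unadjusted p of the 45 members, but under 2-fold. HSPA5 averaged 12.27 ± 0.54 in IN and 12.86 ± 0.38 in OUT, a difference of -0.59 (exact permutation p = 0.0563). DNAJC3, a J protein of the same compartment that brings clients to HSPA5, averaged 7.88 ± 0.68 in IN and 8.70 ± 0.69 in OUT, a difference of -0.83 (exact permutation p = 0.0693). HSP90AA1, the stress-responsive HSP90 of the cytosol, had 11.47 to 12.58 in IN (median 12.18) and 12.21 to 12.68 in OUT (median 12.59), a difference of -0.48 (unadjusted p = 0.00748, exact permutation p = 0.0281). Of 5 probesets of HSP90AA1 1 differed in sign from the others, at 0.062.

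Medians of neighbouring lists were also below 0 at day 28. Of the 8 members of the endoplasmic reticulum 2 were above 0 in IN minus OUT, with a median of -0.42, against 0.016 over all probesets. In the list of endoplasmic reticulum folding genes 4 of 14 were above 0, with a median of -0.18, and HYOU1, a large HSP70 relative of that compartment, fell by 1.47 (unadjusted p = 0.00939, adjusted p = 0.978). None of 11 smooth muscle genes was above 0, with a median of -0.30, and MYL9, the regulatory light chain of smooth muscle myosin, was at -1.28 (unadjusted p = 0.0274). The smooth muscle mean was 10.11 ± 0.68 in IN and 10.55 ± 0.27 in OUT, and IN replicates 2, 3 and 6 had the lowest means, at 9.34, 9.56 and 9.75. The part of muscle in the difference of HSPB6 was not tested. Of 10 listed goblet and Paneth cell genes, which mark secretory cells, 5 were measured, and LYZ and REG3G were not among them. The mean of these 5 genes was 11.01 ± 0.45 in IN and 11.60 ± 0.27 in OUT. The part of secretory cells in the endoplasmic reticulum members was not tested either.

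**Figure D2:**
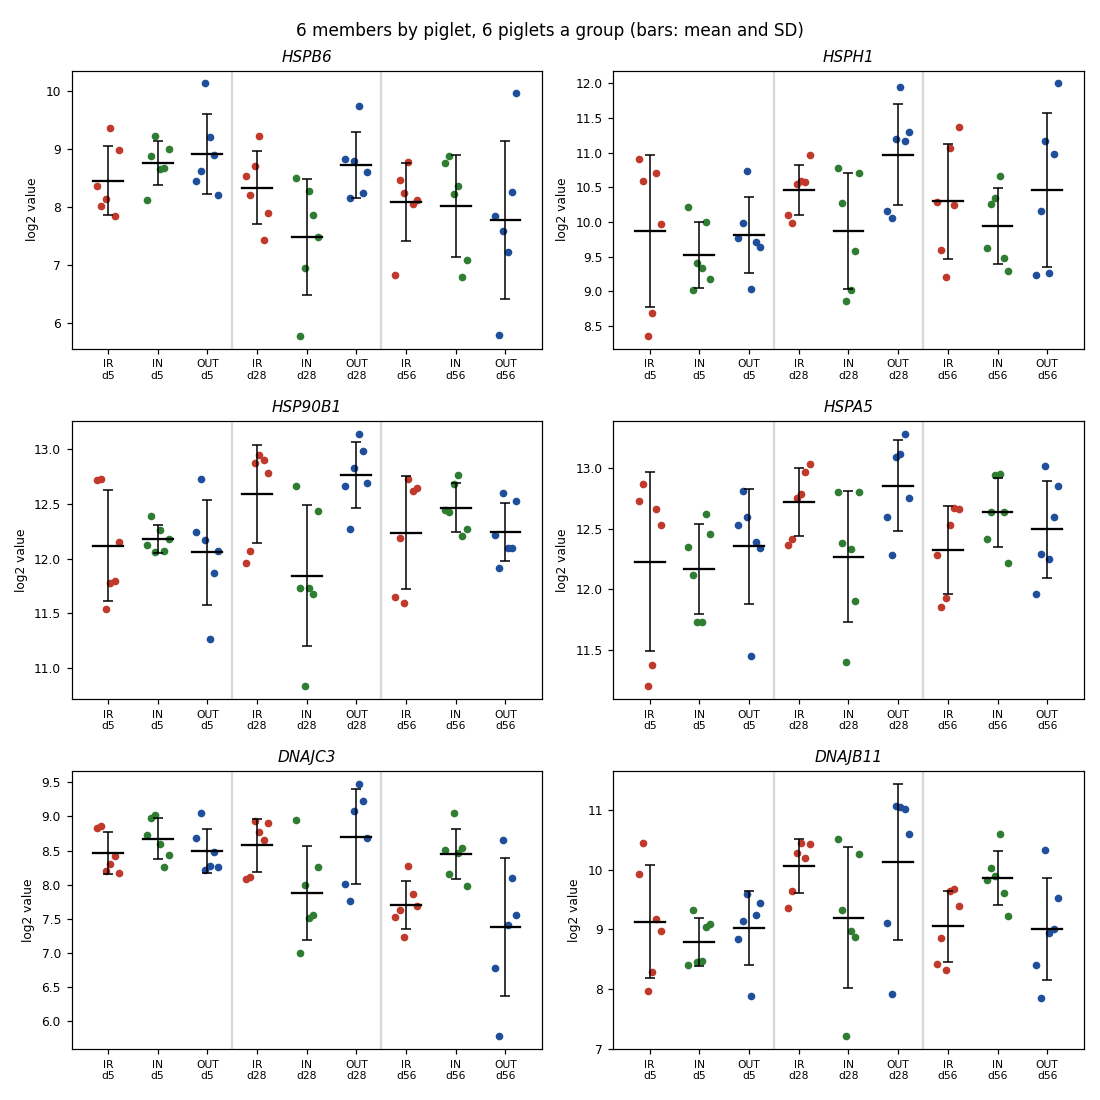
Log2 signal of HSPB6, HSPH1, HSP90B1, HSPA5, DNAJC3 and DNAJB11 by day, with 1 point for each piglet, IR, IN and OUT from left to right within each day, a black bar at the mean and whiskers of 1 SD (n = 6). At day 28 HSPB6 averaged 7.48 in IN and 8.72 in OUT, and at day 56 DNAJC3 averaged 8.45 in IN and 7.38 in OUT.

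In the isolator-reared piglets at day 28 no member was called, against 0.495% of all probesets in IR minus IN and 0.154% in IR minus OUT. In IR minus OUT the smallest p belonged to DNAJB1 and its partner HSPA8. DNAJB1 had 9.91 to 10.24 in IR (median 10.08), against 8.95 to 10.02 in IN (median 9.73) and 9.16 to 9.99 in OUT (median 9.75). The differences were 0.45 from IN (unadjusted p = 0.0166) and 0.39 from OUT (unadjusted p = 0.0314). HSPA8 had 12.77 to 13.18 in IR (median 13.01), against 12.35 to 12.92 in IN (median 12.73) and 12.25 to 13.01 in OUT (median 12.72). HSP90B1 had 11.96 to 12.95 in IR (median 12.83), and its difference from IN was 0.75 (unadjusted p = 0.0131, adjusted p = 0.605, exact permutation p = 0.0476). Of the 45 members 37 were above 0 in IR minus IN, against 47.3% of all probesets, among them all 7 members with HSPB symbols and a number, HSPB11 included, with a median of 0.27. All 11 smooth muscle genes were above 0 in that comparison, with a median of 0.28. With an unadjusted p under 0.05 there were 7 members in IR minus IN and 4 in IR minus OUT, against 6.73% and 2.59% of all probesets. Without IN replicates 2 and 3 the first of these counts was 1, against 4.46% of all probesets.

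At day 56 HSPA6 was the member that met the call in IR minus IN, as 1 of 45, against 0.287% of all probesets and 0.121% in that direction. Its signals were 6.12 in the unnumbered IR piglet and 9.22, 6.05, 9.14, 6.89 and 9.05 in IR replicates 1, 2, 3, 5 and 6. In IN they were 4.92 in the unnumbered piglet and 5.11, 5.80, 5.39, 7.45 and 6.31 in replicates 1, 2, 4, 5 and 6. IR replicates 1, 3 and 6 were above every IN piglet, and the other 3 IR piglets lay inside the IN range. HSPA6 averaged 7.75 ± 1.55 in IR and 5.83 ± 0.94 in IN, and rose by 1.91, or 3.77-fold (SE 0.61, unadjusted p = 0.00557, adjusted p = 0.706 by limma, exact permutation p = 0.0368). In OUT its signals were 5.5 to 7.43 (median 5.89), and the difference of IR from OUT was 1.53 (SE 0.61, unadjusted p = 0.0212, adjusted p = 0.665, exact permutation p = 0.0649), which was not a call. Without any 1 of IR replicates 1, 3 and 6, IN replicates 1 and 4 or the unnumbered IN piglet, HSPA6 was no longer called in IR minus IN, at differences between 1.62 and 1.83. Nor was it called in a fit of only the 2 groups (unadjusted p = 0.0129) or of all 9 groups (unadjusted p = 0.0278).

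The same 3 IR piglets were high in related genes. DNAJB1 had 10.27, 10.71 and 10.35 in IR replicates 1, 3 and 6, against 9.62, 9.18 and 9.90 in the other 3. HSP70.2, read from 1 of its 3 probesets, had 11.83, 12.58 and 12.26 in those piglets, against 9.86 to 11.13 in the others. The 3 probesets of HSP70.2 gave differences of 1.36, 1.23 and 1.17 in IR minus IN at day 56. Their unadjusted p-values were 0.0266, 0.0152 and 0.0247, with no adjusted p under 0.789 (limma). In IR minus OUT they gave only 0.51, 0.28 and 0.44 (unadjusted p = 0.379, 0.550 and 0.364, limma). In IN minus OUT they gave -0.86, -0.95 and -0.73, so that IN was also below OUT. HSP70.2 is a close paralog of HSPA6, so that probes of either gene may read both, and how far they do was not tested. In OUT at day 56 replicate 6 had the highest signals of HSPA6, at 7.43, and of HSPH1. The immediate early genes did not move with the 3 IR piglets: their median deviations from the other IR piglets were 0.13, -0.17 and 0.13 in replicates 1, 3 and 6.

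DNAJA4 separated IR from IN at day 56. Its signals were 2.88 to 3.51 in IR (median 3.11), against 2.56 to 2.78 in IN (median 2.71) and 2.59 to 3.30 in OUT (median 2.93). All 6 IR piglets were above all 6 IN piglets, against 0.387% of all probesets without overlap, but every value was below a signal of 4. The difference was 0.45 (SE 0.14, unadjusted p = 0.00403, adjusted p = 0.655, exact permutation p = 0.00216). HSPB7 had 4.90 to 5.85 in IR (median 5.30) and 4.36 to 5.56 in OUT (median 4.73), with overlap, a difference of 0.51 (unadjusted p = 0.0197, exact permutation p = 0.0606). It was the member with the smallest p in IR minus OUT, where 0 members were called, against 0.283% of all probesets.

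**Figure D3:**
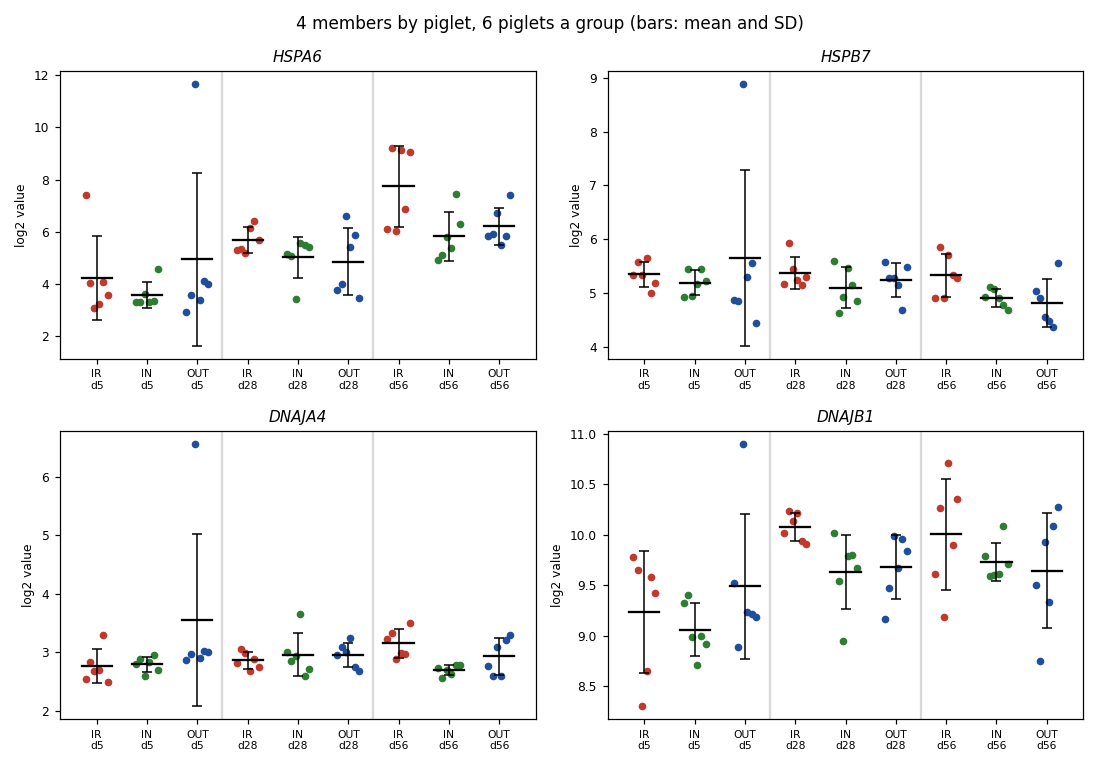
Log2 signal of HSPA6, HSPB7, DNAJA4 and DNAJB1 by day, with 1 point for each piglet, IR, IN and OUT from left to right within each day, a black bar at the mean and whiskers of 1 SD (n = 6). OUT replicate 3 at day 5 lies far above its group in all 4 genes, and at day 56 IR replicates 1, 3 and 6 have HSPA6 signals of 9.05 to 9.22.

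Sow-reared piglets differed at day 56 in DNAJC3, which was higher in IN as 1 of 45 members called, against 0.274% of all probesets and 0.216% in that direction. DNAJC3 had 7.98 to 9.05 in IN (median 8.48), against 5.77 to 8.65 in OUT (median 7.48). The ranges overlapped, with 1 IN piglet above all OUT piglets. It averaged 8.45 ± 0.37 in IN and 7.38 ± 1.01 in OUT, and rose by 1.07, or 2.10-fold (SE 0.35, unadjusted p = 0.00744, adjusted p = 0.519 by limma, exact permutation p = 0.0325). The second probeset of DNAJC3, which is dim, gave 0.38 with an unadjusted p of 0.097. DNAJC3 lost its call without any 1 of IN replicates 2, 4 and 5, the unnumbered IN piglet or OUT replicates 1, 2, 4 and 6, at differences between 0.75 and 1.11. IR piglets had 7.23 to 8.28 (median 7.66), and 5 of them were below the IN range, with a difference of -0.75 (unadjusted p = 0.0496, adjusted p = 0.80, exact permutation p = 0.00866).

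Other chaperones of the endoplasmic reticulum were also higher on average in IN at day 56. DNAJB11, the J protein ERdj3 that works with HSPA5, had 9.22 to 10.59 in IN (median 9.86), against 7.85 to 10.32 in OUT (median 8.97) and 8.33 to 9.67 in IR (median 9.12). The difference from OUT was 0.86 (unadjusted p = 0.028). Of the 8 members of that compartment 7 were above 0 in IN minus OUT, with a median of 0.25, against -0.013 over all probesets. In IR minus IN 0 were above 0, with a median of -0.36, against 0.0031 over all probesets. The folding list of the same compartment had 12 of 14 genes above 0 in IN minus OUT, with a median of 0.22, and its median in IR minus IN was -0.26. Markers of other cells had medians below 0 in IR minus IN too: plasma and B cell genes had a median of -0.39 with 2 of 5 called lower, T cell genes a median of -0.91, and cell cycle genes a median of -0.61. The mean of the 5 goblet and Paneth cell genes was 11.26 ± 0.72 in IR, 11.75 ± 0.35 in IN and 11.16 ± 0.25 in OUT. It was thus lower on average in IN than in OUT at day 28 and higher at day 56. The mean of the 5 plasma and B cell genes was lower in IN than in OUT on both days. It was 7.45 ± 1.71 against 7.59 ± 0.79 at day 28 and 8.71 ± 0.15 against 9.02 ± 0.84 at day 56. The part of these cells was not tested.

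HSPA2, an HSP70 best known from sperm cells, ran the other way between the sow-reared groups. It had 3.23 to 3.97 in IN (median 3.41), against 3.27 to 5.65 in OUT (median 4.68), so that the ranges overlapped and 4 OUT piglets were above every IN piglet. The difference was -1.0 (SE 0.36, unadjusted p = 0.0136, adjusted p = 0.554, exact permutation p = 0.0238), which missed the call. In all, 8 members had an unadjusted p under 0.05 in IN minus OUT at day 56, against 7.82% of all probesets, while IR minus IN had 6 and IR minus OUT had 2, against 6.18% and 7.18%.

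The IN minus OUT difference of DNAJC3 had opposite signs at day 28 and day 56. The change, day 56 minus day 28, was 1.90 (SE 0.44, unadjusted p = 7.09e-05, adjusted p = 0.254, interaction term of a limma fit over all 9 groups). With single arrays left out it ran from 1.58 to 2.15. Its adjusted p was 0.0414 without OUT replicate 3 at day 56, and otherwise lay above the threshold, up to 0.540 without IN replicate 2 at day 28. The same term was 1.14 for HSP90B1 (SE 0.34, unadjusted p = 0.00157, adjusted p = 0.291) and 1.79 for DNAJB11 (unadjusted p = 0.00883, adjusted p = 0.378). By the 2-fold call these 3 genes and DNAJC5 passed, 4 of 45 members, all upwards, against 0.786% of all probesets in that direction. Of the 8 members of the endoplasmic reticulum 7 were above 0 and 4 had an unadjusted p under 0.05. Over all 45 members this was 8, against 9.3% of all probesets, and no adjusted p was under 0.05 among the members or over all probesets, a share of 0%. Within OUT, DNAJC3 fell by 1.33 at day 56 relative to day 28 (adjusted p = 0.00486, limma), while the same difference was -0.88 in IR and 0.57 in IN.

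Days were compared with 18 piglets a day. For day 28 minus day 5, averaged over the 3 treatments, 18 members had an adjusted p under 0.05, of which 16 were higher and 2 lower. This compares with 42.8% of all probesets, 20.2% higher and 22.6% lower. By the call with the 2-fold minimum there was 1 member, DNAJC9, against 7.65% of all probesets. The difference was above 0 for 35 of 45 members, against 48.2% of all probesets. For day 56 minus day 28, 12 members had an adjusted p under 0.05, 4 higher and 8 lower, against 23.4% of all probesets, 11.8% higher and 11.6% lower. The call was met by 1 member, HSPA6, against 2.05%, and 11 of 45 members were above 0, against 48.4% of all probesets. Day, weaning, diet and any array batch by day cannot be told apart.

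J proteins of the cytosol and nucleus had the smallest adjusted p of the age comparisons. DNAJC17, which has an RNA-binding motif and takes part in splicing, averaged 5.20 ± 0.37 at day 5, 5.99 ± 0.39 at day 28 and 5.10 ± 0.32 at day 56 (SD, n = 18 each). It rose by 0.80 by day 28 (SE 0.11, adjusted p = 1.58e-07, limma) and then fell by 0.90 (SE 0.11, adjusted p = 4.76e-08), with the fall between -0.81 and -1.01 in each of the 3 treatments. DNAJC9, a histone chaperone with a J domain, averaged 5.24 ± 0.67, 6.39 ± 1.44 and 5.71 ± 1.08 at the 3 days, and rose 2.22-fold by day 28 (difference 1.15, SE 0.37, adjusted p = 0.0114). Its day 28 piglets were split: IN had 7.74, 8.46, 4.34, 4.38, 3.67 and 7.43, and OUT had 4.41, 4.90, 7.50, 7.40, 7.54 and 7.32. The cell cycle genes had their low means in the same 5 piglets, at 5.74 to 6.76, against 8.58 to 9.51 in the other 7. DNAJB6, which keeps aggregation-prone proteins soluble, averaged 9.74 ± 0.26, 10.43 ± 0.39 and 10.72 ± 0.25, and rose at both steps, by 0.69 (adjusted p = 1.11e-07) and 0.29 (adjusted p = 0.0252).

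HSP90AA1, DNAJB1, HSPH1 and HSPA14, all of the cytosol, were higher at day 28 than at day 5. HSP90AA1 averaged 11.89 ± 0.35 at day 5, 12.27 ± 0.33 at day 28 and 12.23 ± 0.31 at day 56, and rose by 0.38 at day 28 (adjusted p = 0.00319). DNAJB1 rose by 0.54 (adjusted p = 0.00326), HSPH1 by 0.70 (adjusted p = 0.0215) and HSPA14 by 0.81 (SE 0.21, adjusted p = 0.00128). All 8 members of the HSP70 group of cytosol and nucleus were above 0, with a median of 0.21. HSPA6 averaged 4.26 ± 2.10, 5.19 ± 0.94 and 6.60 ± 1.36 at the 3 days. The day 5 mean and SD include OUT replicate 3 at 11.67, against 2.94 to 4.13 in the other OUT piglets. That piglet makes the step from day 5 to day 28 smaller. HSPA6 rose 2.65-fold at day 56 relative to day 28 (difference 1.40, SE 0.49, adjusted p = 0.0305), with 7 of 18 piglets above every day 28 piglet. Without IN replicate 5 at day 56 it was 1.30 (adjusted p = 0.0513). HSPA6 was also no longer a 2-fold call without IN replicates 2 and 3 of day 28 (difference 1.28, unadjusted p = 0.0159, adjusted p = 0.0639), nor without any 1 of IR replicates 1, 3 and 6, IN replicate 5 or OUT replicate 6 of day 56, or IN replicate 3 or OUT replicates 1 and 6 of day 28, at 1.30 to 1.33. By treatment that step of HSPA6 was 2.05 in IR, 0.81 in IN and 1.35 in OUT, with no call in any of the 3. HSPA2 averaged 3.44 ± 0.48 at day 28 and 3.91 ± 0.76 at day 56, and rose by 0.47 (adjusted p = 0.0393), with 0.36 in IR, 0.11 in IN and 0.95 in OUT. Several single arrays took HSPA2 past the threshold, its adjusted p reaching 0.0797 without the unnumbered IR piglet of day 56.

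Of the 6 mitochondrial members 5 were above 0 in day 28 minus day 5, with a median of 0.33, and 1 in day 56 minus day 28, with a median of -0.19. Of the 8 members of the endoplasmic reticulum 6 were above 0 at the first step, with a median of 0.22. HSPD1 and HSPE1 rose by 0.36 (adjusted p = 0.00995) and 0.30 (adjusted p = 0.0144) at day 28. For HSPD1 that step was -0.014 in IR, 0.46 in IN and 0.63 in OUT. DNAJC11, a J protein of the mitochondrial membranes that helps to shape cristae, averaged 6.93 ± 0.54, 7.52 ± 0.52 and 6.53 ± 0.67. It rose by 0.58 (adjusted p = 0.00791) and then fell by 0.99 (SE 0.18, adjusted p = 5.23e-05). DNAJC19, part of the motor that imports mitochondrial proteins, rose by 0.57 (adjusted p = 0.000109) and then fell by 0.44 (adjusted p = 0.00434). It was chosen after its values were seen. HSPA5 rose by 0.37 (adjusted p = 0.0399) and DNAJB11 by 0.81 (SE 0.27, adjusted p = 0.0125) at day 28, though HSPA5 lost the threshold without any of several single arrays, with an adjusted p of up to 0.0846 without IR replicate 3 of day 5. At day 56 DNAJB9 and DNAJC3 fell by 0.42 (adjusted p = 0.00676) and 0.54 (adjusted p = 0.0217), and 1 of 8 members of the endoplasmic reticulum was above 0, with a median of -0.35. The folding list of that compartment had 6 of 14 genes higher at day 28 and 4 of 14 lower at day 56 at an adjusted p under 0.05. In the chaperonin and prefoldin list 9 of 13 were higher at day 28.

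Other lists had larger median differences between day 5 and day 28. T cell genes had a median difference of 3.28 with 7 of 8 called higher, and cell cycle genes a median of 1.25 with 5 of 9 called, while the 7 numbered HSPB members had a median of 0.0096. The part of incoming or dividing cells in the age differences of the chaperones was not tested.

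**Figure D4:**
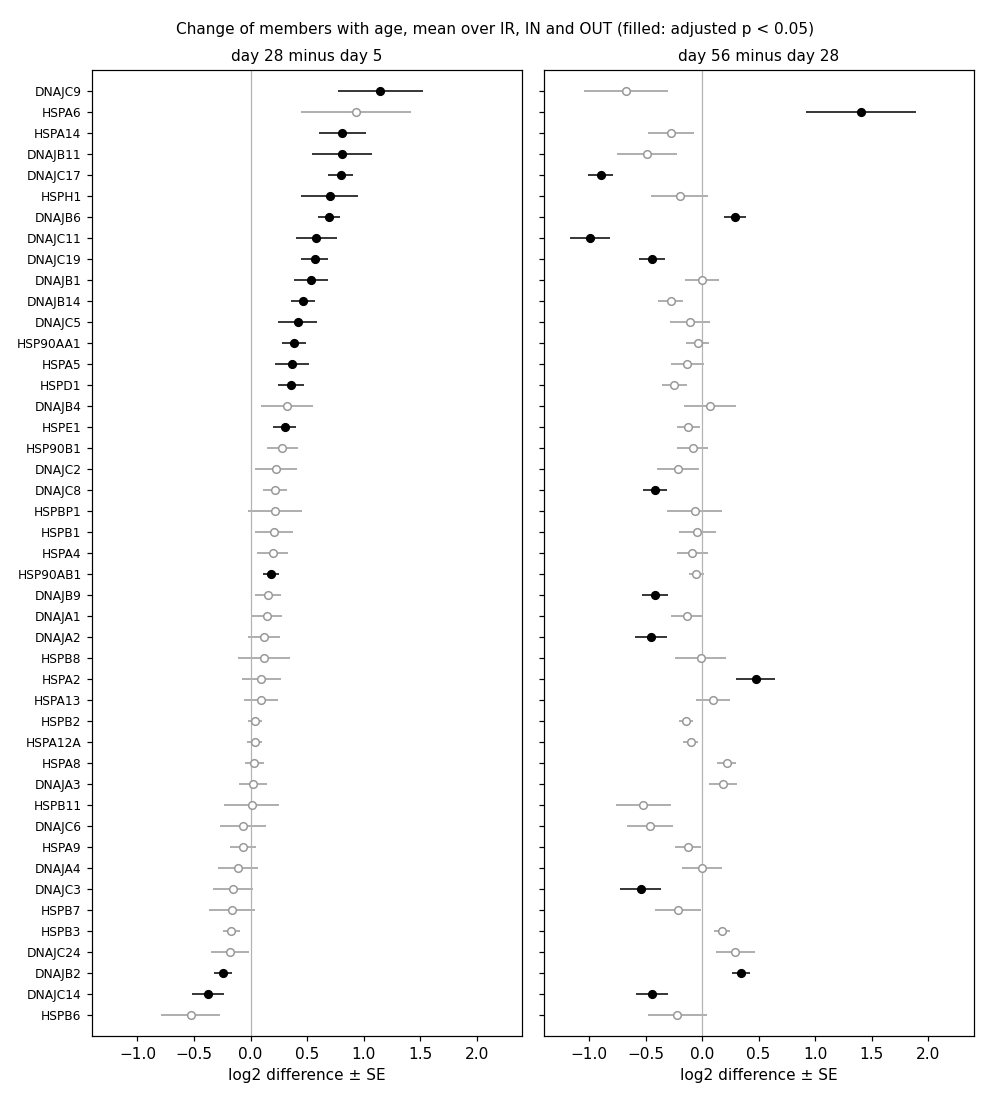
Differences between days on the log2 scale, averaged over IR, IN and OUT, for each of the 45 genes, with bars of 1 SE; filled points have an adjusted p under 0.05 (limma). In day 28 minus day 5 there are 16 such genes to the right of 0 and 2 to the left, and in day 56 minus day 28 there are 4 to the right and 8 to the left.

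Pairs of members were also compared between piglets of the same group. After each group mean was subtracted, 990 pairs of members over 54 piglets had a median Pearson correlation of 0.205, with 720 above 0, and 365 had an adjusted permutation p under 0.05. Pairs of other probesets were not computed, so these counts cannot be called particular to the chaperones. The closest pair was DNAJA1, a J protein of the cytosol, with HSPH1 (r = 0.888, Spearman's rho = 0.886, permutation p = 1e-05 for each, the smallest that 100000 permutations give, adjusted p = 0.00012 for r and 0.00011 for rho). Without the 2 piglets farthest from the median of DNAJA1 it was 0.883. HSPD1 and its lid HSPE1 had r = 0.836 and rho = 0.802, and DNAJB11 and HSP90B1 had r = 0.819 and rho = 0.816. Pairs within the mitochondrial group had a median of 0.464 over 15 pairs, and the HSP70 group 0.401 over 28 pairs. The points share arrays, so overall array quality enters each pair. They also include the IN and OUT piglets of day 28 with low cell cycle means, and pairs were not computed without that day. DNAJA1 and HSPH1 each correlated with the mean of the cell cycle genes over 54 piglets, at r = 0.624 and 0.555. Without OUT replicate 3 at day 5 the median over all pairs was 0.186, and that of DNAJA4 with HSPB7, 0.817, became 0.477.

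Some members followed the marker lists of other cells. HSPB6 correlated with the mean of the 11 smooth muscle genes at r = 0.898 and rho = 0.880 over 54 piglets after subtraction of group means (permutation p = 1e-05 for each, adjusted p = 0.00022 and 0.00016 over 180 tests of 45 members with 4 lists). Without the 2 piglets farthest from the median of the muscle genes it was 0.864, and 0.902 outside IN and OUT at day 28. HSPB8, the partner of BAG3 in the clearance of damaged muscle proteins, had r = 0.852 and rho = 0.733, HSPB1 (HSP27) had 0.682 and 0.673, and HSPB7 had 0.604 and 0.610. These 4 were the members with r of 0.6 or more, against 0.848% of all probesets, and the median over the 45 members was 0.165, against -0.0082 over all probesets.

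With the 9 cell cycle genes, the IN and OUT piglets of day 28 fell into separate clusters, so the correlation was taken over the other 42 piglets. DNAJC9 had r = 0.787 and rho = 0.719 (permutation p = 1e-05 and 3e-05, adjusted p = 0.0003 and 0.0006 over 45 members), and 0.669 without the 2 farthest piglets. HSPA14 had r = 0.721 and rho = 0.779, HSPA9 had 0.658 and 0.663, and HSPD1 had 0.650 and 0.661. DNAJC8, a J protein of the spliceosome chosen after its values were seen, had 0.759 and 0.716. Of the 45 members 9 had r of 0.5 or more, against 6.32% of all probesets, and the median was 0.292, against -0.021. In whole tissue these correlations do not tell a chaperone level within a cell type from the share of that cell type.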

How the data were processed

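Ileal RNA of 54 piglets was extracted with Trizol and RNeasy, labelled in 1 cycle and hybridised to GeneChip Porcine Genome arrays. The authors scanned the arrays with GCOS 1.2 and normalised them by GCRMA, per the submitters' processing notes, and the log2 values they deposited were used unaltered. Of 24123 probesets, 67 controls were left out, and no filter on dim probesets was applied. Groups came from the sample labels, in which 2 arrays of day 56 carry no replicate number. Members and gene lists were chosen with earlier results of these data known.

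Fits used limma 3.58.1 in R 4.3.3 with Benjamini-Hochberg adjustment over all probesets. Each day was fitted on its own with its 3 groups and no block, and 1 fit over 9 groups gave the age and interaction terms. Treatment calls asked for an unadjusted p under 0.01 and at least 2-fold, and age statements used an adjusted p under 0.05. For single genes, an exact two-sided permutation of 6 against 6 piglets was added. Correlations used 100000 two-sided permutations of piglets within groups, in Python 3.11.15 with numpy 2.4.6 and scipy 1.17.1. The fits were checked on simulated data with independent normal noise of limited spread and no outlying arrays. That check does not bear on calls that depend on single piglets.

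Genes were named by a rule: well-known members, members called within a day, the 2 smallest p per comparison, the 4 largest called age differences in each direction, and the 3 brightest and 3 dimmest. Other genes were chosen after their values were seen. Whether equal replicate numbers pair piglets was checked by correlation of deviations, and in no comparison were all pairs above 0.1. Alternatives covered blocks, the groups in the fit, dim probesets, renewed normalisation, probeset choice, thresholds and each array left out. The omission of IN arrays 2 and 3 at day 28, and leave-one-out fits of the interaction, were added after the data were seen. No sequences were used here.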

Additional observations from a re-analysis of the deposited data

Results flagged for a closer look

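Within each group of 6 piglets, the highest or lowest signal was marked when its gap to the next piglet exceeded 0.625 of the group's range. This marked 22 of 288 combinations of 32 named genes and 9 groups, where chance alone marks about 1 in 20.

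OUT replicate 3 at day 5 gave 9 of them. It was the highest of its group for HSPA6 at 11.67, HSPB7 at 8.89, DNAJA4 at 6.56, DNAJB1 at 10.90, HSPB8 at 8.69, HSP90AB1 at 12.58, HSPA8 at 13.13 and HSPD1 at 12.11, and the lowest for DNAJB9 at 9.20. In the same group HSPA5 was low in replicate 4, at 11.45 with the next at 12.34, and HSPB3 was high in replicate 5, at 2.58.

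IN replicate 3 at day 28 was low for HSPA6, at 3.44 with the next at 5.08, and for HSPB1, at 9.36 with the next at 10.78. DNAJC11 was high in IN replicate 1 at day 28, at 9.06 with the next at 7.50. HSPB3 was low in IN replicate 4 at day 28, at 2.20. At day 5 DNAJB9 was high in IN replicate 5, at 10.62, and HSPA6 in IN replicate 6, at 4.57.

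Among IR piglets HSPA6 was high in replicate 1 at day 5, at 7.42 with the next at 4.08. HSPE1 was low in IR replicate 1 at day 28, at 12.82, and HSPB6 was low in the unnumbered IR piglet at day 56, at 6.83 with the next at 8.05. In OUT at day 28 HSP90AA1 was low in replicate 1, at 12.21, and HSPA2 was high in replicate 6, at 4.45 with the next at 3.48. No interaction of treatment with day passed the adjusted threshold among the members.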

How the results depend on the processing

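Counts of members called moved with the processing wherever they were above 0. IN minus OUT at day 28 (2 members) gave 1 with the replicate block, 0 with only the 2 groups in the fit, 1 with all 9 groups, 0 at an adjusted p under 0.05, 0 without IN replicates 2 and 3, and 0 to 4 with single arrays left out. The 0 came without IN replicate 3 or OUT replicate 3, 4 or 6, and the 4 without IN replicate 1 or OUT replicate 2. IN minus OUT at day 56 (1 member) gave 2 with the replicate block, 0 with numbered arrays only, 0 with only the 2 groups, 0 at an adjusted p, 0 with the mean of all probesets of a gene, and 0 to 2 with single arrays left out. The 0 came without IN replicate 2, 4, 5 or the unnumbered one, or OUT replicate 4 or 6, and the 2 without OUT replicate 3. IR minus IN at day 56 (1 member) gave 0 with the replicate block, with only the 2 groups, with all 9 groups and at an adjusted p, and 0 to 1 with single arrays left out, with 0 without IR replicate 1, 3 or 6 or IN replicate 1, 4 or the unnumbered one. IR minus OUT at day 56 (0 members) gave 1 with the block of numbers in twos and 1 with numbered arrays only, and 0 to 1 with single arrays left out, with 1 without IR replicate 2 or the unnumbered one. The other treatment comparisons stayed at 0 under every alternative.

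Day 28 minus day 5 (1 member, higher) gave 18 at an adjusted p (16 higher, 2 lower). It gave 0 in IR alone, 3 in IN alone (2 higher, 1 lower) and 0 in OUT alone. Single arrays left out gave 0 to 2, with 0 without IN replicate 2 at day 28 and 2 without OUT replicate 3 at day 5. Day 56 minus day 28 (1 member, higher) gave 2 with median centring (1 higher, 1 lower), 12 at an adjusted p (4 higher, 8 lower) and 0 in IN alone. It gave 3 in OUT alone, 1 in IR alone and 1 without IN replicates 2 and 3 of day 28. All of these were lower, so the main call of HSPA6 was not among them. Single arrays left out gave 0 to 2. The 0 came without IR replicate 1 or 6, IN replicate 5 or OUT replicate 6 at day 56, or OUT replicate 6 at day 28. The interaction gave 0 to 1, with DNAJC3 as the 1 without OUT replicate 3 at day 56.

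Of 3299 alternative values of single genes, 3085 kept their direction and their side of the threshold, 197 lost the threshold, 13 gained it and 4 reversed. The reversals were HSP90AB1 (-0.058) and HSPD1 (-0.014) for day 28 minus day 5 in IR alone, DNAJC3 (0.57) for day 56 minus day 28 in IN alone, and HSPA6 for IR minus OUT at day 5, which ran from -1.34 without IR replicate 1 to 0.63 without OUT replicate 3. HSPB6 lost its call in 9 of 28 alternatives (-1.45 to -0.69), HSPH1 in 14 (-1.29 to -0.90), DNAJC3 at day 56 in 11 (0.73 to 1.32) and HSPA6 at day 56 in 9 (1.62 to 2.25). For pairs of equal replicate number, correlations of deviations ran from -0.48 to 0.68, with 1 to 4 pairs above 0.1 in a comparison, and the block changed calls only as given. The cause of these shifts was not tested. With 6 piglets a group, dim members such as DNAJA4 and HSPB3 are limited by signals near the floor.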

Other observations

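Other marker lists had members that followed them between piglets of the same group, after subtraction of group means over 54 piglets. HSPA2 correlated with the mean of the T cell genes at r = 0.554 and rho = 0.609 (permutation, adjusted p = 0.00048 and 0.00024 over 180 tests), and DNAJB2, a J protein that hands clients to the proteasome, at r = 0.533 and rho = 0.569 (adjusted p = 0.00074 and 0.0013). DNAJC6 ran the other way, at r = -0.479 and rho = -0.484. DNAJB9 correlated with the mean of the enterocyte genes at r = 0.593 and rho = 0.421 (adjusted p = 0.026 and 0.029), and at 0.403 without the 2 piglets farthest from the median of those genes.

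HSP70.2 was lower in IN than in OUT at day 28, with differences of -1.28, -0.83 and -0.59 at its 3 probesets and unadjusted p-values of 0.00623, 0.00666 and 0.109 (limma, no adjusted p under 0.978). The first of these met the call. At that probeset IN replicates 2 and 3 had 8.40 and 7.98, against 9.76 to 10.14 in the other IN piglets and 9.64 to 11.90 in OUT. HSP70.2 was not fitted without IN replicates 2 and 3. In OUT replicate 3 at day 5 its signals were 12.45 to 12.79, and in OUT replicate 6 at day 56 the highest was 13.36.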
